A study of Mus musculus with 12 samples.

Results

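Lung RNA of mice treated with cigarette smoke was compared with lung RNA of control mice, all of them female C57BL/6N animals at 4 months of age kept under specific pathogen free housing. The members were the arrays whose titles give that age and treatment, 3 of smoke-treated mice and 3 of control mice, out of 12 arrays in all. The other 6 arrays, 3 smoke and 3 control at 6 months, shared in the estimate of the spread and served for the comparison between ages. The labels call the arrays biological replicates and leave the exposure itself to the study's paper. No source used here gives the smoke dose, its duration, the hour of collection or any pooling of animals.

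Each array read the brightness of beads that carry 1 probe each. A level is the log2 of the background-corrected and normalized intensity, and a change is the smoke mean minus the control mean of these levels, so that a change of 1 is a doubling. Of 25697 probes, 15490 were detected on at least 3 of the 12 arrays, and they stood for 10541 named genes. On the 6 arrays at 4 months 55.1 to 57.6% of the probes were detected, and the median raw intensity was 21 to 28 units. The defining markers of lung were bright on every one of them: surfactant protein C (Sftpc) lay between 14.11 and 14.43, the club cell secretoglobin Scgb1a1 between 14.63 and 14.74, the alveolar type 1 marker Ager between 13.40 and 13.75 and the endothelial marker Pecam1 between 11.42 and 11.67. The control lungs differed more among themselves than the smoke lungs. Over the tested probes, control array 3 correlated with the smoke arrays at r = 0.9897, 0.9892 and 0.988. With control arrays 1 and 2 it correlated less, at r = 0.9859 and 0.982, and the cause was not tested. The median SD of a gene was 0.111 over the smoke arrays and 0.173 over the control arrays, and it was larger over the control arrays for 69.7% of the genes. Since whole lung was measured, fewer cells of a type and less RNA per cell cannot be told apart in any of the changes below.

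The lung's resident alveolar macrophages take up inhaled particles and spent surfactant and digest both in lysosomes, the acid compartments that hold proteases and lipases. Monocytes from the blood join them in inflammation, drawn in by chemokines, and epithelium and liver release acute phase proteins at such times. Aromatic compounds in smoke bind the aryl hydrocarbon receptor, which switches on genes such as Cyp1a1 and Cyp1b1, and reactive compounds release the transcription factor NRF2, which switches on genes of glutathione and quinone metabolism. Lung cells also run a circadian clock, in which BMAL1 (the product of Arntl) together with CLOCK or NPAS2 activates the genes of the PER, REV-ERB and DBP proteins, and these in turn act back on the activators or on further output genes.

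At 4 months the response was small in number of genes and, with all arrays weighted equally, leaned to rises. Of the 10541 genes, 174 passed limma's test (adjusted p under 0.05), which is 1.65% of them. Higher in smoke lungs were 135 (1.28%) and lower were 39 (0.37%). The lean was weaker without control array 3, at 203 higher and 168 lower (54.7% higher). With array weights it was 334 higher and 314 lower (51.5% higher). Leaving out any other single array gave 73.3 to 87.8% higher. Changes under 2-fold made up 91 of the 174 calls, 67 of the rises and 24 of the falls. The median change was 1.01 among the rises and -0.84 among the falls, and the smallest that passed were 0.45 and -0.52. Over all genes the median change was -0.03, and 45.3% of the genes lay above 0.

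Bright and dim genes both took part in the response, and the share called was lowest among the dimmest. With a mean level below 6, 21 genes rose and 8 fell out of 2796 (1.04%). Between 6 and 8, 47 rose and 18 fell out of 3150 (2.06%), between 8 and 10, 43 rose and 8 fell out of 2922 (1.75%), and above 10, 24 rose and 5 fell out of 1673 (1.73%). All 174 genes had smoke and control arrays that did not overlap, which held for 2261 genes in all, or 21.4%. The number that passed depended on single arrays: it was 102, 96 and 87 without smoke array 1, 2 or 3, and 371 without control array 3. Left out one at a time, none of the 12 arrays ended the call of 74 genes, 68 of the rises (50.4%) and 6 of the falls (15.4%). These are called the lasting calls below, and the account rests mainly on them.

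**Figure D1:**
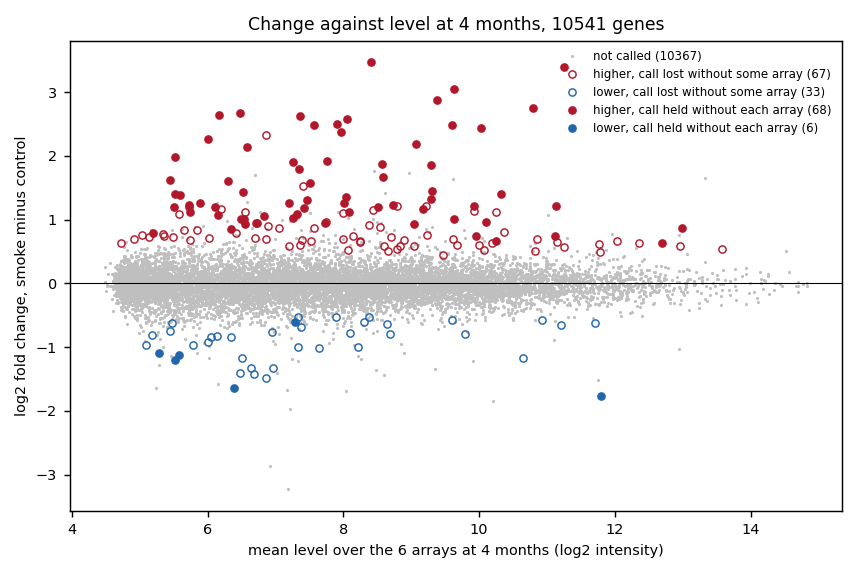
Log2 fold change (smoke minus control, vertical axis) against the mean level over the 6 arrays at 4 months (log2 intensity, horizontal axis) for 10541 genes. Red marks the 135 higher and blue the 39 lower genes, and filled symbols the 74 whose call lasted without each of the 12 arrays. Filled symbols lie mostly above 0, and several of the smallest lasting changes sit at the bright end.

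Behind the 10 largest rises, the next 20 lasting rises had changes between 1.41 and 2.49. The clearest of them by its p-value was Zranb3, a DNA translocase that acts at stalled replication forks. Zranb3 stood at 9.07, 9.07 and 9.35 in smoke lungs, against 6.94, 6.82 and 6.58 in control lungs. Its smoke arrays were close together and all far above the control arrays (log2 fold change 2.38, SE 0.12, adjusted p = 1.28e-06). Ch25h, which makes an oxysterol from cholesterol, was at 9.97, 9.94 and 10.57 in smoke lungs, against 8.11, 7.90 and 7.91 in control lungs. Smoke array 3 was the highest and the groups were well apart (log2 fold change 2.19, adjusted p = 2.19e-05). Igf1, a growth factor that macrophages and fibroblasts secrete, was at 8.72, 8.63 and 8.83 in smoke lungs, against 6.68, 6.49 and 7.23 in control lungs, with control array 3 the nearest to the smoke arrays (log2 fold change 1.93, adjusted p = 0.000318). Inhba, which encodes a subunit of activin A, rose by 1.61 on the log2 scale (adjusted p = 0.00108).

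Several of these 20 genes are receptors of myeloid cells. Lilrb4a, an inhibitory receptor of the immunoglobulin family, was at 8.67, 8.89 and 8.87 in smoke lungs, against 6.37, 5.68 and 6.90 in control lungs. Control array 2 was the lowest, and the groups lay over 1.5 units apart (log2 fold change 2.49, adjusted p = 0.00112). Its close copy Lilr4b rose by 2.26 (adjusted p = 0.00014). It was detected on 1 of the 3 control arrays, and how far the 2 probes share signal was not tested. Clec4n, a lectin that binds fungal mannan, rose by 1.86, and the scavenger receptor Marco, which binds particles and bacteria, by 1.58 (adjusted p = 0.000805 and 6.53e-05). Marco was at 8.18, 8.39 and 8.32 in smoke lungs, against 6.92, 6.70 and 6.53 in control lungs, so that every smoke array was over 1 unit above every control array. Ms4a7 and Ms4a6d, membrane proteins of macrophages, rose by 1.87 and 1.44 (adjusted p = 0.00109 and 0.00276).

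Others are membrane proteins of vesicles and endosomes. Mcoln3, a cation channel of endosomes and lysosomes, rose by 1.80 (adjusted p = 0.00398), with smoke array 2 above the other two. Syngr1, a vesicle membrane protein known from synapses, was at 8.02, 8.14 and 8.46 in smoke lungs, against 6.44, 6.23 and 6.23 in control lungs. Within each group its arrays differed by under 0.5 (log2 fold change 1.90, adjusted p = 7.63e-06). Lhfpl2, a membrane protein, was steadier still, at 9.40, 9.33 and 9.55 in smoke lungs and 7.87, 7.68 and 7.72 in control lungs (log2 fold change 1.67, adjusted p = 3.94e-06). Apol7c, of the apolipoprotein L family, rose by 1.43 (adjusted p = 0.00284).

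**Figure D2:**
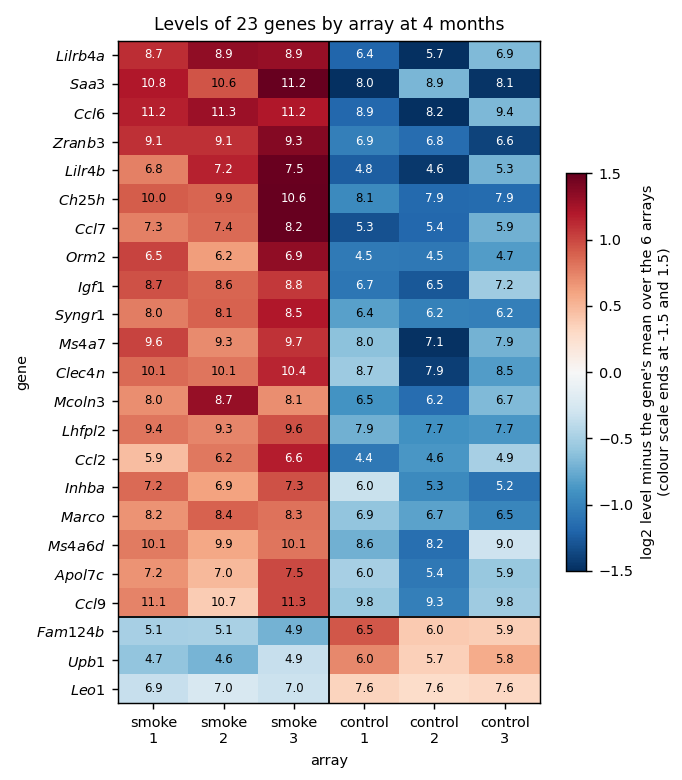
Levels of the next 20 lasting rises and of the 3 lasting falls outside the largest falls (rows) on the 6 arrays at 4 months (columns, smoke left of control). Numbers are log2 intensity, and colour shows the level minus the gene's mean over the 6 arrays. Every row changes colour at the line between smoke and control, and control array 2 is the darkest blue in many of the upper rows.

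The macrophage lists held many of the rises and 1 fall. Over all genes, 1.28% rose, 0.37% fell and 45.3% lay above 0. The lists here and below were chosen with earlier results of these data known, so an excess over these shares may be partly built in. Some genes, such as Trem2, stand in several lists. Of 17 monocyte and interstitial macrophage genes, 7 rose, none fell and 16 lay above 0, with a median of 0.41. Of 18 genes known from lipid-laden macrophages, 10 rose and all 18 lay above 0, with a median of 0.60. Among these was Fabp5, a fatty acid carrier, at 8.37, 8.79 and 8.76 in smoke lungs, against 7.32, 6.93 and 7.89 in control lungs. Control array 3 came closest to the smoke arrays (log2 fold change 1.27, adjusted p = 0.00613). Plin2, which coats lipid droplets, was at 9.59, 9.36 and 9.55 in smoke lungs, against 8.51, 8.62 and 8.58 in control lungs. The arrays of each group fell within a narrow range (log2 fold change 0.93, adjusted p = 0.00491). Of 13 alveolar macrophage genes, 5 rose and 1 fell (median 0.35). The rises included the integrin Itgax (1.12, adjusted p = 0.00237), and the fall was Cidec, a lipid droplet protein that fat cells also express (-1.43, adjusted p = 0.0294). The call of Cidec was lost without any one of smoke arrays 1, 2 and 3 and control arrays 1 and 2 (adjusted p = 0.0705 to 0.136). Without smoke array 3, the rises numbered 3 of 13 alveolar and 3 of 17 monocyte genes. The complement genes C1qb and C1qc, which macrophages make, rose by 1.12 and 1.14 (adjusted p = 0.0109 for both), and both calls were lost without smoke array 3 (adjusted p = 0.0612 and 0.0705). Adgre1, the gene of the F4/80 antigen, rose by 1.17 (adjusted p = 0.00612).

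Of 26 lysosomal hydrolases and membrane proteins 7 rose. All 26 lay above 0, with a median change of 0.29. The smoke and control arrays of 18 of the 26 did not overlap (69.2%, against 21.4% of all genes). The lists were chosen with earlier results of these data known, so an excess over all genes may be partly built in. The cathepsin Ctsz was at 9.99, 10.02 and 10.39 in smoke lungs, against 9.20, 9.19 and 8.99 in control lungs, with smoke array 3 the highest (log2 fold change 1.01, adjusted p = 0.00171). Legumain (Lgmn), a protease that cuts after asparagine, was at 11.40, 11.49 and 11.60 in smoke lungs, against 10.82, 10.60 and 10.83 in control lungs. The 3 smoke arrays all lay above 11 and the 3 control arrays all below it (log2 fold change 0.75, adjusted p = 0.00392). These were the lasting calls of the list. Cathepsin D (Ctsd) was at 7.10, 7.18 and 7.28 in smoke lungs, against 6.41, 6.32 and 6.0 in control lungs (log2 fold change 0.94, adjusted p = 0.0169), and its adjusted p was 0.0511 to 0.095 without any one of the smoke arrays. The protective protein cathepsin A (Ctsa) rose by 1.10 (adjusted p = 0.0232, and 0.0663 to 0.107 without any one of the smoke arrays). The list held 3, 4 and 2 rises without smoke array 1, 2 or 3, and 4 when the 4-month arrays were fitted alone. Of 14 subunits of the vacuolar proton pump, which acidifies the lysosome, 13 lay above 0 with a median of 0.24, and 1 rose, Atp6v1c1 (0.58, adjusted p = 0.0169). That call was lost without smoke array 2 or 3 or control array 2 (adjusted p = 0.0627 to 0.103).

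Lysosomal genes are known to share an E-box-like element that factors of the TFEB family bind, and the promoters of the listed genes were therefore read. The letters CACGTG, which read the same on both strands, were sought in RefSeq windows of 250 bases before to 50 bases after each start site (GRCm38.p6). They were present for 9 of 23 lysosomal genes with a window (39.1%) and for 4 of 10 proton pump genes (40.0%), against 8.09% of all 27025 genes with a window. All of the listed genes counted were tested here, whereas the 27025 include genes that were not, so the sets are unlike. The matches are a description of letters and were tied to no level. A gene was counted if any of its windows held the letters. Lgmn has 2 windows. The one at chr12:102439043-102439342 on the minus strand has the first base of the element 49 bases before its start site. The other, at chr12:102439679-102439978, holds none. The window of Ctsd, at chr7:142387778-142388077 on the minus strand, has elements 245 and 98 bases before the start. The windows with the element are shown 5′ to 3′ for Lgmn and Ctsd, with the element in capitals. These genes were picked because both rose and differ in how firmly.
Lgmn: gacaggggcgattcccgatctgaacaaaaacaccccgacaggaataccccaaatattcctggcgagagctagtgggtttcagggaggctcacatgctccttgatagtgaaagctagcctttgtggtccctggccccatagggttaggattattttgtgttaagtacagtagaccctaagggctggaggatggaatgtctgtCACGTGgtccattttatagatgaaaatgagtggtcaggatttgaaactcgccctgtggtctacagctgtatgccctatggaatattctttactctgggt
Ctsd: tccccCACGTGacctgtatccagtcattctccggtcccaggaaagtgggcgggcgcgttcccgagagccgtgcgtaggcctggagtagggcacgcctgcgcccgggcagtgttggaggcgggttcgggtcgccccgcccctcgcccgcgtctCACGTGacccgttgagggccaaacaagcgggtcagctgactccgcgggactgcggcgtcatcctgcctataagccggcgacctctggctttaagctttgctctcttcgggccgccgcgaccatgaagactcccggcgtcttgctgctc
The windows of Ctsz, Ctss and Psap, which also passed, hold no such letters.

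The 6 brightest lasting calls ranged from changes under 2-fold to the large ones of Spon2 and Gpnmb. Galectin-3 (Lgals3), a sugar-binding protein abundant in macrophages, was at 13.36, 13.41 and 13.52 in smoke lungs, against 12.59, 12.53 and 12.54 in control lungs. Neither group spanned more than 0.2 (log2 fold change 0.88, SE 0.09, adjusted p = 0.000235). Cystatin B (Cstb), an inhibitor of cathepsins, was at 12.97, 12.97 and 13.10 in smoke lungs, against 12.50, 12.33 and 12.30 in control lungs, a change of 0.64 (adjusted p = 0.00376). Itih4, a plasma protein of the inter-alpha-trypsin inhibitor family, was at 11.77, 11.58 and 11.88 in smoke lungs, against 10.76, 10.29 and 10.52 in control lungs, with the control arrays the more spread (log2 fold change 1.22, adjusted p = 0.00112). Among the lasting calls with the smallest changes were also Dab2, an adaptor for endocytosis (0.67, adjusted p = 0.00702), Dpp7, a lysosomal dipeptidase (0.74, adjusted p = 0.0049), and Spsb4, a substrate adaptor of a ubiquitin ligase (0.78, adjusted p = 0.00284, detected on 1 of 3 control arrays). The single fall among them, Leo1, a subunit of the PAF1 elongation complex, was at 6.94, 7.04 and 6.97 in smoke lungs, against 7.62, 7.56 and 7.59 in control lungs. The arrays of each group lay within 0.1 of each other (log2 fold change -0.61, adjusted p = 0.00482).

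Of the inflammatory signals, chemokines of the CC family rose most widely. Of 17 CC chemokines and receptors, 7 rose, 6 of them lasting, and the list's median was 0.67 (0.41 without control array 2). Ccl6 was at 11.20, 11.31 and 11.24 in smoke lungs, against 8.85, 8.23 and 9.36 in control lungs, where the smoke arrays agreed closely and control array 2 was the lowest (log2 fold change 2.43, adjusted p = 0.000277). The monocyte attractants Ccl7 and Ccl2 rose by 2.14 and 1.63 (adjusted p = 0.000289 and 0.000394), and Ccl2 was detected on 1 of 3 control arrays. Ccl9 rose by 1.41 and Ccl4 by 1.20 (adjusted p = 0.00337 and 0.00106). Of 16 CXC chemokines and receptors 2 rose, Cxcr1 as a lasting call, and the neutrophil attractant Cxcl2. Cxcl2 was detected on no control array and was at least 1.43-fold higher in smoke lungs (adjusted p = 0.0493). Its call was lost without any one array other than control arrays 2 and 3 at 6 months (adjusted p = 0.056 to 0.192). Cxcl1 was at 9.33, 9.39 and 9.29 in smoke lungs, against 8.76, 6.47 and 7.51 in control lungs, and did not pass (1.76, adjusted p = 0.051). Control array 1 was the nearest to the smoke arrays, and without it Cxcl1 passed (adjusted p = 0.000777).

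Among 15 interleukins and innate cytokines 3 rose. The lasting one was Il1rn, the receptor antagonist that blocks interleukin-1. It was at 7.63, 7.59 and 8.26 in smoke lungs, against 6.74, 6.52 and 6.44 in control lungs, with smoke array 3 above the other two (log2 fold change 1.26, adjusted p = 0.00352). Il1a, an interleukin-1 itself, and Csf2, the growth factor GM-CSF, rose by 1.18 and 0.86 (adjusted p = 0.0235 and 0.0109). Il1a lost its call without any one of the 3 smoke arrays or control array 1 or 2 (adjusted p = 0.0661 to 0.119). Csf2 lost it without smoke array 2 or control array 2 (adjusted p = 0.0614 and 0.0513). Without smoke array 2 or control array 2, 1 of the 15 rose. Tnf had a log2 fold change of 0.46 (adjusted p = 0.344). Of 12 Toll-like and pattern receptors, Tlr7 and Tlr2 rose by 0.67 and 0.70 (adjusted p = 0.0219 and 0.0459), and both calls were lost without any one of the smoke arrays or control array 2 (adjusted p = 0.079 to 0.1 for Tlr7). That of Tlr2 was also lost without smoke array 3 or any one control array at 6 months (adjusted p = 0.0554 to 0.185 over all of these).

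Acute phase and complement genes rose in part. Of 15 tested, 4 rose and 13 lay above 0, with a median of 0.42. Saa3, the serum amyloid A that lung and macrophages make, was at 10.80, 10.55 and 11.20 in smoke lungs, against 8.03, 8.92 and 8.13 in control lungs. Control array 2 was the highest of the controls and still over 1.5 units below the lowest smoke array (log2 fold change 2.49, adjusted p = 0.000951). Orm2, an orosomucoid, was at 6.54, 6.16 and 6.86 in smoke lungs and was detected on no control array, which makes it at least 3.08-fold higher in smoke lungs (adjusted p = 0.000932). Orm1 rose by 2.33 (adjusted p = 0.0132), and lost its call without smoke array 1 or 3 (adjusted p = 0.0577 and 0.076). Of 12 scavenger receptors and C-type lectins, 4 rose, 3 of them lasting: Clec4n and Marco, described above, and Clec5a, a DAP12-coupled lectin (1.19, adjusted p = 0.000988). Of 19 proteases and antiproteases 4 rose, and 3 of these calls lasted. The macrophage elastase Mmp12 and Wfdc17, a protein with a whey acidic protein domain, are among the largest rises, and the other lasting call was Cstb.

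Of the genes that respond to the chemistry of smoke, a few rose. Cyp1b1, an oxidising enzyme under the aryl hydrocarbon receptor, was at 8.05, 7.52 and 8.02 in smoke lungs, against 6.80, 6.67 and 6.84 in control lungs. Smoke array 2 was the lowest of its group and lay above every control array (log2 fold change 1.09, SE 0.15, adjusted p = 0.00256). Ahrr, the repressor of the same receptor, was at 5.28, 5.13 and 5.46 in smoke lungs, against 4.86, 4.45 and 4.92 in control lungs, and did not pass (0.55, adjusted p = 0.0978). Nqo1, a quinone reductase under both the aryl hydrocarbon receptor and NRF2, rose by 0.72 (adjusted p = 0.0208, and 0.0528 to 0.105 without any one of the smoke arrays). In all, 2 of 5 tested genes of the aryl hydrocarbon receptor list rose, with a median of 0.55 (1 of 5 without any one smoke array). Cyp1a1, Cyp1a2, Tiparp and Ahr also stand in that list and were not tested here.

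Of 29 NRF2 and redox genes 2 rose and 23 lay above 0, with a median of 0.27. Beside Nqo1 this was Slc7a11, the cystine carrier that feeds glutathione synthesis. It was at 6.25, 6.53 and 6.76 in smoke lungs, against 5.67, 5.13 and 4.95 in control lungs, with all smoke arrays above all control arrays (log2 fold change 1.27, adjusted p = 0.00285). Without any one smoke array 1 of the 29 rose, and with array weights 7 rose. Haem oxygenase (Hmox1) was at 7.45, 7.76 and 7.77 in smoke lungs, against 7.06, 6.97 and 6.79 in control lungs, and did not pass at 4 months (0.72, adjusted p = 0.112). Ugt1a10 and Akr1b8, which the NRF2 and xenobiotic lists leave out, passed limma's test at 4 months. Their calls were lost without any one of 11 and 10 arrays (adjusted p = 0.0503 to 0.16 and 0.0532 to 0.164). None of the 16 enzymes of the xenobiotic list passed limma's test (3 passed with array weights, 2 with a trended prior or without control array 3). Of these 16, 6 had an unadjusted p under 0.05. Among them was Cyp2a5, a cytochrome that oxidises nicotine, at 10.23, 10.36 and 10.03 in smoke lungs, against 8.79, 9.60 and 9.70 in control lungs (0.85, adjusted p = 0.0814), where control array 1 lay below the other two.

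The core of the element bound by the aryl hydrocarbon receptor, GCGTG on either strand, was sought in the same windows. It was found for 3 of 4 genes of that list with a window (75.0%), against 35.2% of all genes. The window of Nqo1, which rose, does not hold it. The NRF2 element TGACNNNGC, on either strand, was found for 9 of 26 NRF2 and redox genes (34.6%), against 14.0% of all genes. It was in the windows of neither Nqo1 nor Slc7a11. For both elements the listed genes were tested here, while all genes with a window include ones that were not. The window of Cyp1b1, at chr17:79715012-79715311 on the minus strand, is shown 5′ to 3′ with the core in capitals because it is the lasting call of the list. Its core starts 76 bases before the start site.
Cyp1b1: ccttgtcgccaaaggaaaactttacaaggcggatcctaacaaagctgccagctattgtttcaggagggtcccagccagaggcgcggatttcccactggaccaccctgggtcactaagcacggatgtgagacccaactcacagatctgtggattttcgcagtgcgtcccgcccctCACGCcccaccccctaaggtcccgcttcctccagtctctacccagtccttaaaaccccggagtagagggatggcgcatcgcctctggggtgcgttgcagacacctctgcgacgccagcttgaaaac

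Clock genes that passed rose or fell according to their place in the cycle. Of 10 clock output genes and repressors 5 rose and none fell (median 1.08), and of 5 activators and genes of the opposite phase 3 fell and none rose (median -0.79). Dbp, a transcription factor that the clock drives, is among the largest rises. It was at 11.35, 10.82 and 11.29 in smoke lungs, against 7.76, 8.21 and 8.32 in control lungs, a gap of over 2 units between the nearest arrays (log2 fold change 3.05, adjusted p = 3.23e-05). Nr1d2, the gene of a REV-ERB repressor, was at 8.70, 8.55 and 8.94 in smoke lungs, against 7.0, 7.76 and 7.34 in control lungs, with control array 2 the highest control (log2 fold change 1.36, adjusted p = 0.00167). The repressor Bhlhe40 was at 10.50, 10.50 and 10.77 in smoke lungs, against 9.78, 9.37 and 9.72 in control lungs (log2 fold change 0.97, adjusted p = 0.00588). These 3 calls lasted without each array.

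The period genes were higher with less margin. Per3 was at 6.45, 6.18 and 6.36 in smoke lungs, against 4.52, 5.68 and 5.20 in control lungs. The control arrays spanned over 1 unit (log2 fold change 1.20, adjusted p = 0.0237), and the adjusted p was 0.0546 to 0.106 without a smoke array or without control array 1. Per2 rose by 1.22 (adjusted p = 0.0365). Its call was lost without any one of the smoke arrays, of control arrays 1 and 3 and of smoke array 2 at 6 months (adjusted p = 0.0502 to 0.176). Nr1d1, the other REV-ERB gene, was at 9.22, 9.33 and 9.40 in smoke lungs, against 7.12, 8.64 and 7.94 in control lungs, and missed the threshold (1.42, adjusted p = 0.051). Per1 had a log2 fold change of 0.42 (adjusted p = 0.488) and Ciart of -0.12 (adjusted p = 0.822). The clock output list had 3 rises without smoke array 1, 2 or 3 or control array 1.

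On the opposite arm, Npas2, an activator that can stand in for CLOCK, was at 5.18, 4.96 and 4.60 in smoke lungs, against 6.21, 6.07 and 6.06 in control lungs. The control arrays lay within 0.2 of each other and all above the smoke arrays (log2 fold change -1.20, adjusted p = 0.00155), and the call lasted without each array. Arntl was at 6.98, 7.31 and 7.11 in smoke lungs, against 8.02, 8.09 and 8.35 in control lungs, and the groups did not overlap (log2 fold change -1.02, adjusted p = 0.0208). Nfil3, a repressor that binds the same D-box as DBP, fell by 0.79 on the log2 scale (adjusted p = 0.0323). The call of Arntl was lost without smoke array 1 or 3 or control array 2 (adjusted p = 0.0602 to 0.0987). That of Nfil3 was lost without any one of the smoke arrays, control arrays 1 and 3 and smoke array 3 at 6 months (adjusted p = 0.0551 to 0.145). Clock itself had a log2 fold change of -0.29 (adjusted p = 0.278). The hour at which each lung was taken is not given in the sources used here, so treatment and a difference in the hour of collection cannot be told apart for these genes. Glucocorticoid targets and immediate early genes were read as well, and whether their counts bear on the hour or on handling was not tested. By limma 0 of 12 glucocorticoid targets passed at 4 months (2 with an unadjusted p under 0.05, median 0.26). For immediate early genes it was 0 of 22 (4 with an unadjusted p under 0.05, median -0.17). With array weights 2 immediate early genes fell, and without control array 3 1 fell and that median was -0.38. Of the glucocorticoid targets 1 rose with the 4-month arrays alone or without control array 2 at 6 months.

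The D-box, sought as TTATGTAA or TTACGTAA on either strand, was found in the window of 1 of 8 clock output genes (12.5%, against 1.23% of all genes). The E-box CACGTG was found in 3 of 8 (37.5%, against 8.09% of all genes), namely Tef, Per1 and Ciart, none of which passed. The windows of Dbp, Per3 and Nr1d2, which rose, hold no E-box, and Per2 and Bhlhe40 had no window. None of the 5 activator genes had a D-box or an E-box in its window. The share of all genes again includes genes that were not tested here. The window of Per3, at chr4:151044616-151044915 on the minus strand, is shown 5′ to 3′ with its pair of D-boxes in capitals, whose first bases lie 205 and 158 bases before the start site.
Per3: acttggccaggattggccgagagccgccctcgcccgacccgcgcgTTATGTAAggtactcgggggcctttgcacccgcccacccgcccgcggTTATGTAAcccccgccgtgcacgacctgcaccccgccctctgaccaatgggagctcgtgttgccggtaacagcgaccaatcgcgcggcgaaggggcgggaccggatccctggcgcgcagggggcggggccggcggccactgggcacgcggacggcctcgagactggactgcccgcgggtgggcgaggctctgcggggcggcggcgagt

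**Figure D3:**
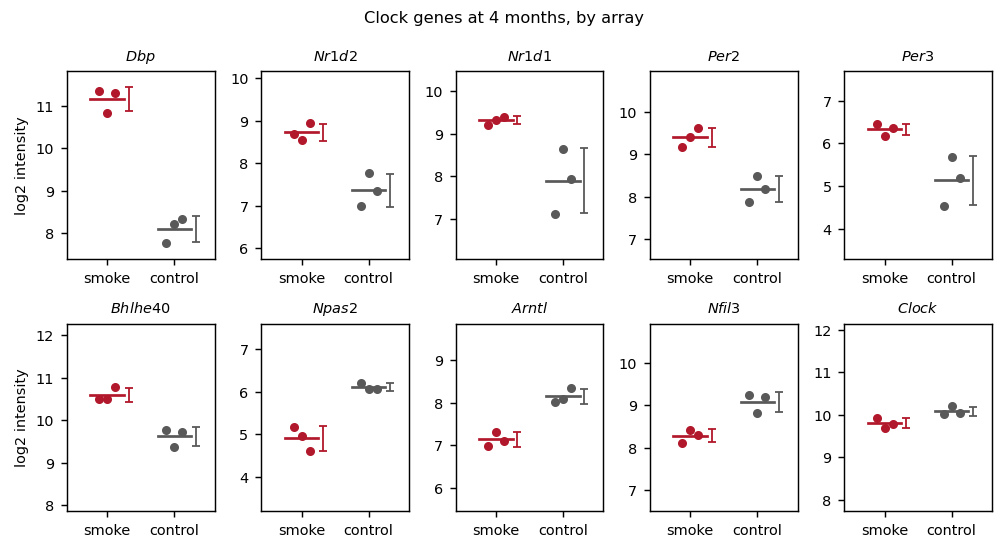
Levels (log2 intensity) of 10 clock genes on the 3 smoke arrays (red, left) and the 3 control arrays (grey, right) at 4 months. Points are arrays, horizontal lines the mean and bars the SD, and every panel spans the same number of log2 units. Smoke arrays are above control arrays for Dbp, Nr1d2, Nr1d1, Per2, Per3 and Bhlhe40 and below them for Npas2, Arntl, Nfil3 and Clock, of which Nr1d1 and Clock did not pass.

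In the fit on all arrays at equal weight, falls were fewer, smaller and less steady than rises. The 6 lasting ones were Spon2, Avpr1a, Npas2, Fam124b, Upb1 and Leo1. Spon2, a secreted matrix protein, was the brightest of them, at 10.83, 10.96 and 10.96 in smoke lungs, against 12.51, 13.00 and 12.53 in control lungs. The groups were over 1.5 units apart (log2 fold change -1.76, adjusted p = 6.53e-05). Avpr1a, the vasopressin receptor that constricts vessels, was at 5.67, 5.67 and 5.37 in smoke lungs, against 7.16, 7.25 and 7.21 in control lungs, and its control arrays lay within 0.1 of each other (log2 fold change -1.64, adjusted p = 0.00114). Upb1, an enzyme of pyrimidine breakdown, fell by 1.09 on the log2 scale and Fam124b by 1.13 (adjusted p = 0.00266 and 0.00318). Upb1 was detected on 1 and Fam124b on 2 of the 3 smoke arrays.

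Platelet genes lay below 0 as a list. Of 14, 5 fell, 13 lay below 0 and the median was -1.05. For 10 of the 14 the smoke and control arrays did not overlap (against 21.4% of all genes). This list too was chosen with earlier results known, so that excess may be partly built in. Gp5, a subunit of the platelet receptor for von Willebrand factor, was at 5.91, 6.14 and 6.30 in smoke lungs, against 7.84, 7.35 and 7.62 in control lungs (log2 fold change -1.49, adjusted p = 0.0155). The integrin gene Itga2b fell by 1.41 on the log2 scale and Treml1 by 1.33 (adjusted p = 0.0202 and 0.0218). All 3 calls were lost without smoke array 1, smoke array 2 or control array 1, that of Treml1 also without smoke array 3, and that of Itga2b also without smoke array 3 or control array 2 (adjusted p = 0.0602 to 0.096). The number of falls in the list was 0, 1 and 1 without smoke array 1, 2 or 3, and 0 and 2 without control array 1 or 2. Ppbp, a chemokine stored in platelets, had a log2 fold change of -1.44 (adjusted p = 0.116), and Pf4, a platelet chemokine that macrophages also express, of 0.36 (adjusted p = 0.469). The red cell list showed 1 fall out of 7. Alas2, the enzyme of haem synthesis in red cell precursors, was at 10.22, 9.76 and 10.23 in smoke lungs, against 10.95, 11.32 and 11.43 in control lungs (log2 fold change -1.16, adjusted p = 0.0281). Its adjusted p was 0.0535 to 0.143 without any one of the smoke arrays and of control arrays 2 and 3. The globin gene Hba-a1, near the top of the scale, was at 14.77, 14.84 and 14.84 in smoke lungs and 14.87, 14.87 and 14.84 in control lungs. Another globin gene outside the list, Hbb-bt, did differ between the groups by limma (adjusted p under 0.05). Its call was lost without any one of 9 arrays (adjusted p = 0.0522 to 0.223). The amount of blood left in each lung was not recorded in the labels, and its part in these values was not tested.

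Interferon response genes lay slightly below 0. Of 26, 24 had a change below 0 and the median was -0.32. For 13 of the 26 the smoke and control arrays did not overlap (against 21.4% of all genes). Since this list was also chosen with earlier results known, the excess may be partly built in. By limma 2 of the 26 fell. Oas2, which senses viral RNA, was at 7.11, 6.74 and 6.64 in smoke lungs, against 8.02, 7.74 and 7.73 in control lungs (log2 fold change -1.0, adjusted p = 0.00919), and lost its call without smoke array 2 or 3 (adjusted p = 0.0506 and 0.0602). Mx2, an antiviral GTPase, fell by 0.62 on the log2 scale (adjusted p = 0.042), a call that was lost without any one array other than the 3 control arrays at 6 months (adjusted p = 0.05 to 0.195). No gene of the list fell without smoke array 2 or 3, and 12 fell with array weights. Isg15 and Rsad2, both induced by interferon, had log2 fold changes of -0.70 and -1.10 (adjusted p = 0.0592 and 0.113). None of the 11 genes of natural killer and cytotoxic cells lay above 0, their median was -0.34, and 2 fell, Nkg7 and Klrd1. No gene of the list fell without smoke array 2 or 3 or control array 1, 1 fell without smoke array 1 or control array 2, and 4 fell with array weights. Klrd1, a receptor of these cells, fell by 0.61 on the log2 scale (adjusted p = 0.0235), and lost its call without smoke array 2 or 3 or control array 1 or 2 (adjusted p = 0.0634 to 0.132). Nkg7, a granule protein of cytotoxic cells, was at 8.42, 8.18 and 8.37 in smoke lungs, against 9.0, 8.80 and 9.11 in control lungs (log2 fold change -0.65, adjusted p = 0.0236), and lost its call without any one of the smoke arrays or control array 1 (adjusted p = 0.0577 to 0.132). Elastin (Eln) was the fall among 16 elastic fibre genes, whose median was -0.19. It was at 9.58, 9.10 and 9.26 in smoke lungs, against 9.90, 9.78 and 9.99 in control lungs (-0.58, adjusted p = 0.0436), and its call was lost without any one array other than smoke array 1 at 4 months and control array 1 at 6 months (adjusted p = 0.0508 to 0.202).

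Much of the lung's own tissue held no called gene at 4 months. By limma, 0 of 17 alveolar type 2 genes passed (3 with an unadjusted p under 0.05), 0 of 10 alveolar type 1 genes (0), 0 of 13 club and airway secretory genes (3), 0 of 12 ciliated cell genes (1), 0 of 23 endothelial genes (9) and 0 of 13 smooth muscle and pericyte genes (0). Of all 10541 genes, 1557 had an unadjusted p under 0.05. Small shared displacements were present in some of these lists. Of the 17 alveolar type 2 genes 16 lay above 0 (median 0.18), with Lamp3, a lamellar body protein, at 11.57, 11.55 and 11.58 in smoke lungs, against 11.13, 10.98 and 11.31 in control lungs (0.43, adjusted p = 0.125). Of the 23 endothelial genes 4 lay above 0 (median -0.25). Egfl7, secreted by endothelium, was at 13.40, 13.44 and 13.34 in smoke lungs, against 13.70, 13.96 and 13.53 in control lungs (-0.34, adjusted p = 0.195). With array weights, which called 648 genes, 1 alveolar type 2, 1 club and 2 endothelial genes passed, and with a trended prior 1 alveolar type 2 and 1 club gene. Without control array 3 it was 1 alveolar type 2, 2 club and 1 endothelial gene, and 1 club gene passed without control array 2. The widest single difference in the airway list was Clca1, a goblet cell protein, at 4.34, 4.57 and 4.36 in smoke lungs, against 4.47, 4.63 and 9.11 in control lungs. Control array 3 alone was high (-1.65, adjusted p = 0.432).

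Housekeeping and growth programmes also held no call with all arrays in the fit as described. By limma 0 of 52 respiratory chain genes passed (5 with an unadjusted p under 0.05), although 42 lay above 0 with a median of 0.09. The counts were 0 of 35 for the proteasome (3), 0 of 22 for the cell cycle (2), 0 of 18 for the unfolded protein response (4), 0 of 16 for cytosolic heat shock (4) and 0 of 17 for cholesterol synthesis and uptake (4), with medians of 0.01, 0.03, 0.09, 0.23 and 0.20. In the lymphoid lists, 0 of 15 B cell genes passed (4 with an unadjusted p under 0.05, median 0.07), 0 of 15 T cell genes (3, median -0.16) and 0 of 21 genes of MHC class II and dendritic cells (6, median 0.05). The T cell median was -0.56 without control array 2, which lay 0.55 below the control mean over that list, and 1 T cell gene rose with the replicate number as a block. Without control array 1 the B cell median was 0.29 with 1 rise, and with array weights it was -0.06. Without control array 3, 2 cholesterol genes and 1 respiratory chain gene rose. A respiratory chain gene also rose with equal medians, cyclic loess, the mean of probes or a trended prior and without smoke array 1 or 2 at 6 months, and a cholesterol gene with an offset of 50 or a trended prior. With array weights, 3 respiratory chain, 3 cholesterol, 2 unfolded protein response and 1 proteasome, heat shock, cell cycle, B cell, T cell and MHC class II gene each passed.

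Further lists held few calls or none. Of 8 Fc receptors 2 rose, among them Fcgr3, a low-affinity receptor for immunoglobulin G (1.22, adjusted p = 0.0151), whose call was lost without smoke array 2 or 3 or control array 2 (adjusted p = 0.0625 to 0.091). Fcamr, a receptor for immunoglobulins A and M that also stands in the lymphoid tissue list, was detected on no control array and was at least 1.29-fold higher in smoke lungs (adjusted p = 0.0124, and 0.0682 and 0.0745 without smoke array 1 or 2). It was the rise among 20 lymphoid tissue genes (median 0.00). Among the 5 mast cell and basophil genes the transcription factor Gata2 fell by 0.65 on the log2 scale (adjusted p = 0.0365, and 0.0502 to 0.15 without any one of the smoke arrays, control arrays 1 and 2, smoke array 3 at 6 months and control arrays 2 and 3 at 6 months). By limma 0 of 12 heart muscle genes (0 with an unadjusted p under 0.05), 0 of 6 mesothelium genes (3) and 0 of 16 glycolysis and hypoxia genes (4) passed, with medians of -0.27, -0.33 and 0.06. With array weights 1 mesothelium gene and 2 glycolysis and hypoxia genes passed, and without control array 3 1 of each list, where the mesothelium median was -0.46.

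Control array 1 held a marked signal of neutrophil granule genes, and with it went several of the largest changes that did not pass. Camp, the antimicrobial peptide cathelicidin, was at 6.15, 4.96 and 5.60 in smoke lungs, against 12.27, 7.60 and 6.53 in control lungs. Control array 1 alone was far above the rest, and the change of -3.23 did not pass (adjusted p = 0.23). Ngp, a neutrophil granule protein, was at 6.07, 4.96 and 5.42 in smoke lungs, against 11.76, 6.73 and 6.55 in control lungs (-2.86, adjusted p = 0.274). Lactoferrin (Ltf) followed the same pattern, at 9.38, 9.06 and 9.42 in smoke lungs, against 13.32, 9.84 and 10.21 in control lungs (-1.84, adjusted p = 0.272). Over the 12 neutrophil genes none passed limma's test (4 fell with array weights, and 1 rose without control array 1), 6 having an unadjusted p under 0.05, and the median was -1.12. It was -0.60 without control array 1 and -1.74 without control array 2. The mean deviation of the list from the control mean was -1.03, -1.55 and -0.61 on the smoke arrays and 1.33, -1.0 and -0.34 on the control arrays. Cd163l1, a scavenger receptor, was also highest on control array 1, at 6.65, 6.01 and 6.02 in smoke lungs, against 10.43, 7.06 and 7.10 in control lungs (-1.97, adjusted p = 0.202). A change in the other direction that did not pass was AA467197, at 9.75, 9.66 and 10.10 in smoke lungs, against 8.87, 7.05 and 8.41 in control lungs (1.73, adjusted p = 0.0757). Here control array 2 was far below, and the gene passed without control array 1 (adjusted p = 0.0407).

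**Figure D4:**
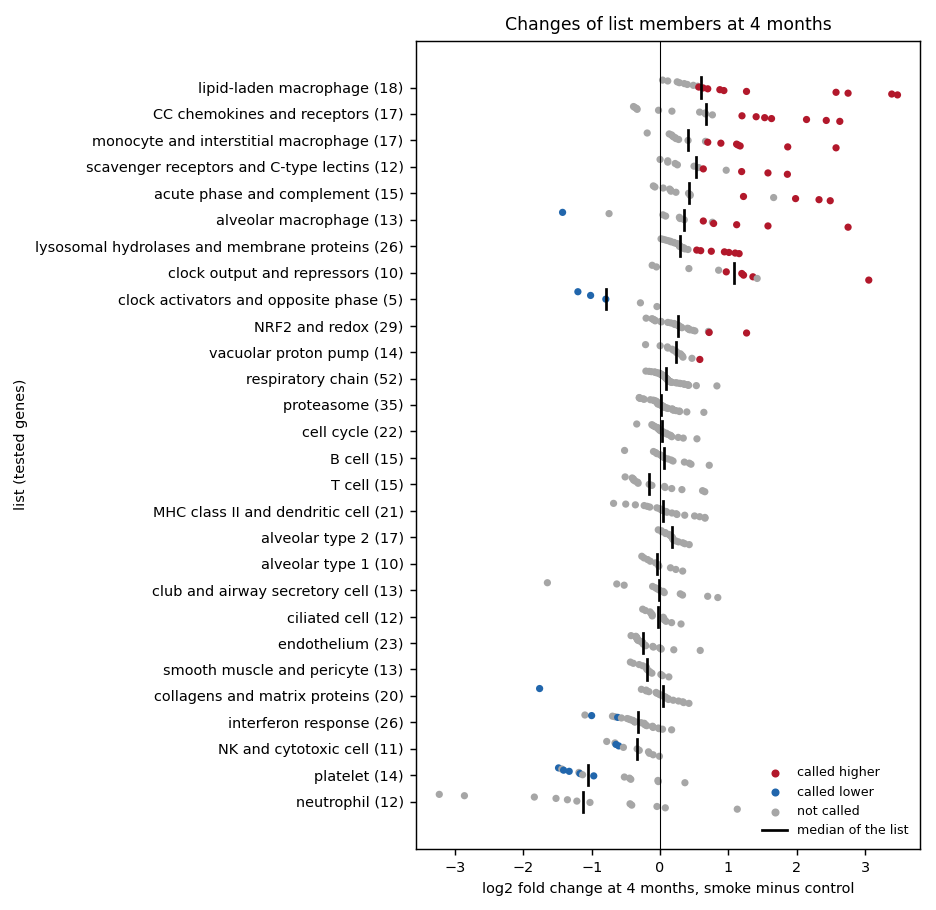
Log2 fold change at 4 months (smoke minus control, horizontal axis) of every tested member of 28 gene lists (rows, with the number tested). Red points are called higher, blue points called lower, grey points not called, and the black bar is the list's median. Red points gather in the macrophage, chemokine, scavenger receptor, lysosome and clock output rows, blue ones in the platelet and clock activator rows, and the neutrophil row spreads widest with no call.

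At 6 months, where 535 genes passed (5.08%), most of the early response was present again. Of the 174 genes called at 4 months 142 were also called at 6 months, which is 81.6% of the early list and 26.5% of the later one. This held for 120 of the 135 rises (88.9%) and 22 of the 39 falls (56.4%). The arrays of the ages are different animals with their own controls, and all 12 share the estimate of the spread. The sign was the same at both ages for 168 of the 174, and the median change was 1.07 at 6 months over the early rises and -0.69 over the early falls. Of the 74 lasting calls, 73 were called at 6 months. The exception was Mamdc2, a secreted protein with MAM domains, at 8.67, 8.67 and 8.60 in smoke lungs at 4 months, against 7.29, 7.29 and 8.02 in control lungs (log2 fold change 1.11, adjusted p = 0.00702). At 6 months its change was -0.11.

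No gene passed the test of the difference between the ages in limma (0.0% of 10541, smallest adjusted p = 0.142), with 874 genes at an unadjusted p under 0.05 (8.29%), 31 of them among the 174. Other settings called between 0 and 13 genes. So no gene is shown to respond at one age alone, and changes at the ages are given side by side. Saa3 changed by 2.49 at 4 months and 4.77 at 6 months (difference 2.28, adjusted p = 0.26), and Apol7c by 1.43 and 2.61. Tnf had a log2 fold change of 0.46 at 4 months and 1.43 at 6 months, and Hmox1 of 0.72 and 1.52 (adjusted p of the difference 0.462 and 0.51). The cell cycle list had a median of 0.03 with no call at 4 months and of 0.48 with 10 rises at 6 months. Uhrf1, a replication factor in that list, had a log2 fold change of 0.05 at 4 months and 1.12 at 6 months (adjusted p of the difference 0.26). The clock lists kept their direction: the median of the output genes was 1.08 at 4 months and 1.04 at 6 months, and that of the activators -0.79 and -0.68. The interferon median was -0.32 at 4 months and -0.01 at 6 months. Enpep, an aminopeptidase that trims angiotensin, had changes of opposite sign, 0.74 at 4 months and -0.47 at 6 months (adjusted p of the difference 0.26). Its call at 4 months was lost without any one of the smoke arrays, control arrays 1 and 3 and smoke array 3 at 6 months (adjusted p = 0.0526 to 0.135). Alas2 had a log2 fold change of -1.16 at 4 months and -0.14 at 6 months (adjusted p of the difference 0.495).

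**Figure D5:**
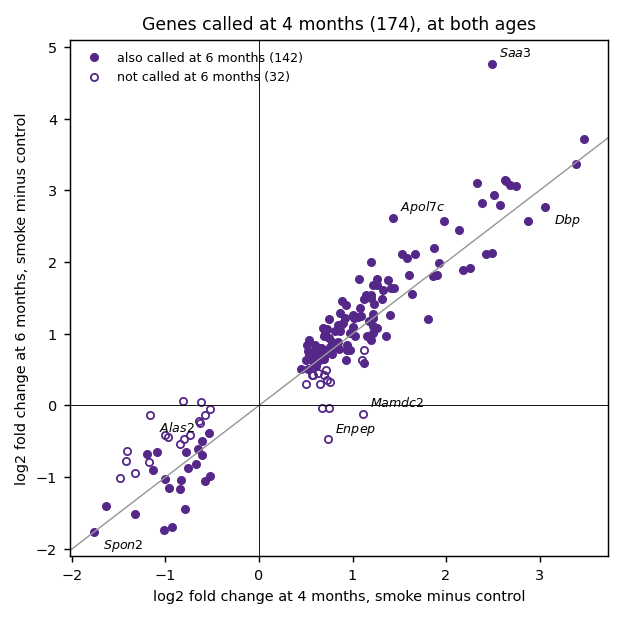
Log2 fold change at 4 months (horizontal axis) and at 6 months (vertical axis), smoke minus control, of the 174 genes called at 4 months. Filled circles are the 142 also called at 6 months, open circles the other 32, and the grey line marks equal changes. Saa3 and Apol7c lie furthest above the line and Mamdc2 and Enpep lie below 0 at 6 months.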

How the data were processed

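A linear probe intensity and a detection p-value were deposited for each of the 12 bead arrays, per the file headers. The intensity runs below 0 on some probes, so a background had been subtracted before it was deposited. RNA was purified on RNeasy columns with a DNase step and biotin-labelled with a TotalPrep kit, per the labels' protocols. A second deposited table holds intensity normalized by the authors, whose method no source used here names, nor the scanner software. It served as an alternative.

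The raw intensity was corrected and quantile normalized with limma's neqc (limma 3.58.1, R 4.3.3; which infers the negative controls from detection p-values, offset 16) and put on the log2 scale. Probes with a detection p-value below 0.05 on at least 3 arrays were kept. Symbols came from the platform annotation, updated through gene identifiers for 23962 probes. For the 2901 genes with several probes the brightest stood for the gene. The called genes included 44 such genes, and in 1 of them (Pon3) another probe moved the other way.

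All 12 arrays entered a single linear model of 4 group means (lmFit and eBayes, 8 residual and 4.54 prior degrees of freedom). P-values were two-sided and adjusted by Benjamini-Hochberg over the 15490 probes. The same fit was run on simulated data, with independent noise and the same SD for a probe in every group. The control arrays here spread more than the smoke arrays, so that run cannot vouch for the calls. A probe detected on no array of the dimmer group has a bound only and is given as at least N-fold, against the higher of its own value and the lowest detected value of each array. Precision is limited by 3 arrays a group. Slide and scan order are not given in the sources, so a batch was not tested. Replicate numbers were not used to pair the arrays in this model.

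The 51 gene lists and the genes were chosen with earlier results of these data known. The lists hold 955 genes, of which 760 were tested. Genes were named by rule: the next 20 lasting rises after the 10 largest, the lasting falls outside the 8 largest, the 6 brightest lasting calls, the 6 lasting calls of smallest change, the 6 largest changes that did not pass, and up to 4 members of a list by p, lasting ones first. The lung markers Sftpc, Scgb1a1, Ager and Pecam1 checked the tissue. The other genes in the text, Tef, Hba-a1, Hbb-bt, Ugt1a10, Akr1b8, Nr1d1, Per2, Per1, Ciart, Ccl4, Ctsa, Psap, C1qc, Fabp5, Plin2, Tnf, Rsad2, Ppbp, Pf4, Uhrf1, Mamdc2 and Enpep, were chosen after their values were seen. Promoter windows came from RefSeq and were read with Python 3.11.15 (pandas 2.3.3, figures with matplotlib 3.10.9). Alternatives are described at the end. No other series or reads were used.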

Additional observations from a re-analysis of the deposited data

How the results depend on the processing

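The number of genes called at 4 months was 174, and 143 to 221 under 9 of the other settings: no further background correction (164), the authors' deposited values (185), an offset of 50 (205), scaling to equal medians (210), cyclic loess (192), no filter on detection (143), detection on all 4-month arrays (152), the mean of all probes of a gene (196) and a trended prior (221). With the 4-month arrays alone it was 131. Array weights, which gave control arrays 2 and 3 weights of 0.583 and 0.422, called 648 genes, 334 higher and 314 lower, so that 51.5% were higher against 77.6% otherwise. Leaving out 1 array gave 87 to 371 calls. The 371 without control array 3 were 203 higher and 168 lower (54.7% higher) and held 157 of the 174, and without control array 1 87.8% of the calls were higher. The cause of these shifts was not tested. A fit with the replicate number as a block called 128. At 4 months same-numbered smoke and control arrays deviated together at r = 0.041, 0.058 and 0.008. At 6 months these values were -0.004, 0.247 and -0.126, where differently numbered arrays gave -0.312 to 0.272. Such correlations cannot exclude a shared slide or batch, which the sources do not give.

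No gene was called for the difference between the ages, against 1 with an offset of 50, 1 with equal medians, 2 with the mean of probes, 13 with array weights and 1 with a trended prior, and 0 to 2 when 1 array was left out (2 without control array 3 at 4 months, 1 without control array 3 at 6 months). With the 4-month arrays alone that difference could not be fitted. Of 218 named genes none changed sign with its call under any setting, and the 52 with lasting calls passed wherever they were tested under the 12 settings other than leaving out 1 array. That was all 52 under 11 of them and 42 with detection on all 4-month arrays, where the other 10 were not tested. A dim probe's change is understated by the offset.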
